A study of Mus musculus with 82 samples.

Results

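Hedgehog ligands, receptors and response genes, together with the transcription factor gene Olig1, were followed through 82 mouse sciatic nerve libraries. The 9 genes are Shh, Dhh, Ptch1, Smo, Gli1, Gli2, Gli3, Hhip and Olig1. They were chosen by name, and all 9 were listed in each of the 8 deposited tables, which hold between 18003 and 53278 genes. The libraries form 22 groups, and each table was compared only within itself.

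The groups were as follows. Fig4 -/- and Fig4 +/+ nerves were taken at postnatal day 12 (P12) and at P4, with 3 libraries each. Nerves labelled Mitf and DhhCre were taken at P21, with 5 each, and nerves labelled Mitf and Egr2Cre at P12, with 3 each. A table of Mitf nerves held 4 uninjured libraries and 4 from 3 days post injury. An injury time course had no uninjured nerve and held wild type and Mutant nerves, 3 libraries per genotype at each of days 3, 7 and 14 post injury. A further table held 3 Egr2Cre Mitf and 3 Mitf libraries. The last, called the Ndrg1 table here, had 6 libraries of control and 6 of Mitf nerves, 5 of Ndrg1 and 5 of Mitf-Ndrg1. Neither of those 2 tables has an age or a treatment in its labels, and the injury tables have no age. DhhCre and Egr2Cre name Cre recombinase driven by Dhh or Egr2 regulatory sequences, which act in Schwann cells. The labels do not say which Mitf, DhhCre, Egr2Cre or Egr2Cre Mitf libraries carry an altered Mitf allele, or what is altered in Mutant nerves. They also do not say what the kind of injury was, or whether replicates are separate animals. The p-values therefore measure the spread between these libraries, which may be technical.

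Hedgehog ligands bind the receptor Ptch1, which otherwise holds the membrane protein Smo inactive. Released Smo acts in the primary cilium on the Gli transcription factors, and Gli1, Ptch1 and Hhip are themselves transcribed in response. In peripheral nerve, Schwann cells make Dhh, which acts on the fibroblasts and perineurial cells that build the nerve sheath. Shh is made by Schwann cells of injured nerve, where it is used as a mark of the repair state. Olig1 is a basic helix-loop-helix factor of the oligodendrocyte lineage that repair Schwann cells also express.

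RefSeq promoter windows on GRCm38.p6, from 250 bases before to 50 bases after the start site, were matched by symbol for 6 of the 9 genes (Dhh, Gli2, Gli3, Hhip, Ptch1 and Smo). Those of Dhh and Smo are shown because these genes fell together in nerves labelled Ndrg1, and that of Gli2 because it alone held the short Gli sequence; they were picked after values and matches were seen. They lie at chr15:98898491-98898790 (minus strand), chr6:29735247-29735546 (plus strand) and chr1:119053570-119053869 (minus strand). Sequences read 5′ to 3′ on the gene's strand, and capitals mark ACCACCC on either strand.
Dhh: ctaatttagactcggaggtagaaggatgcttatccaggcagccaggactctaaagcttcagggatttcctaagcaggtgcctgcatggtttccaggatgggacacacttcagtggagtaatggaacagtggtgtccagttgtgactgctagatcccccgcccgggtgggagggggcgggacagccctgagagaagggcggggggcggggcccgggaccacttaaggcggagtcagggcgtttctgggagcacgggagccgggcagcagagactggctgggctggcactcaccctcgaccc
Smo: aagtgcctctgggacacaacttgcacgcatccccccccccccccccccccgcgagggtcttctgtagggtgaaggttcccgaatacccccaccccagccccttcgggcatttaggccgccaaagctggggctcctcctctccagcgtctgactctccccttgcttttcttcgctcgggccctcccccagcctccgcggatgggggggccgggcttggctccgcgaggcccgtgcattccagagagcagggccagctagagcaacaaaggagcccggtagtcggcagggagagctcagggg
Gli2: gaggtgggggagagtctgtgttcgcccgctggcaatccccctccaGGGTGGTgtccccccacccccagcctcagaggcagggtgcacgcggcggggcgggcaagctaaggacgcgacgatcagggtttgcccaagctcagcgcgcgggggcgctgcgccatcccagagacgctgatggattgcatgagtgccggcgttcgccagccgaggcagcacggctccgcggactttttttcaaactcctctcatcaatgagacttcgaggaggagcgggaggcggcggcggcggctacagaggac

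The full Gli site GACCACCCA was in none of the 6 windows and in 0.253% of all 32851 windows of this length, both strands searched. The shorter ACCACCC, which lies inside it, was in 1 of 6, that of Gli2, and in 4.61% of all. The AP-1 sequence TGANTCA (7.81% of all), the E-box CACGTG (7.15%) and CATGTG (14.2%) had no match in the 6. The Egr sequence GCGGGGGCG (2.91%) matched in Gli2 and Hhip, TGACGTCA (1.79%) in Hhip, and the Sox sequence ACAAAG (18.7%) in Smo. These matches describe letters in the windows and not binding.

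Library totals ranged from 15438800 to 34531500 estimated counts. The genes named in the labels were tested in their own tables with edgeR's quasi-likelihood test, giving log2 changes with Benjamini-Hochberg adjusted p. Fig4 was lower in Fig4 -/- nerves, by a log2 change of -2.35 at P12 (adjusted p = 0.00084) and -2.76 at P4 (adjusted p = 0.0133). Ndrg1 was lower by -3.44 in Ndrg1 nerves (adjusted p = 3.57e-19), and Mitf was 1.77 higher in the Mitf than in the DhhCre libraries (adjusted p = 2.95e-05). In Egr2Cre Mitf against Mitf nerves edgeR called 0 genes, so Mitf did not pass there. Its changes in the other comparisons of Mitf labels are not given here. Schwann cell markers (Sox10, S100b, Egr2, Erbb3) were present in every group. Their summed CPM (counts relative to the library total, scaled within the table) was between 105 and 483 in the time course and between 504 and 2383 elsewhere. Skeletal muscle markers reached 128233 CPM in the time course at day 14 and 70032 CPM in the table of Egr2Cre Mitf nerves. In all bulk values below, fewer cells of a type and less RNA per cell cannot be told apart.

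A library that stands apart touches several results. Replicate 1 of the Mitf nerves 3 days post injury held markers of oligodendrocytes, which belong to the central nervous system, and of neurons. Mog was at 27.7 CPM and Opalin at 6.79 CPM there, and both were at 0 in the other 7 libraries of that table. Syt1 was at 70.5 CPM and at most 0.680 CPM in the others. Not every marker stood apart. Hapln2, of the oligodendrocyte list, was at 2.23 CPM there and at 7.63 CPM in injured replicate 3. The neuron marker Stmn2 was at 46.2 CPM there and between 21.99 and 39.15 CPM in the others. The summed oligodendrocyte markers were at 148 CPM in injured replicate 1, and the uninjured libraries lay between 2.92 and 5.79 CPM. The injury changes of the 9 genes and of the pathway list are given with and without it.

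Shh, on chr5:28456815-28467256 (mm10, GENCODE vM21, minus strand, 3 exons), had group means of at most 0.446 CPM in 9 of the 22 groups and was the ligand with the widest range. Its mean was 493 CPM ± 145 (SD, n = 3) in Mutant and 453 ± 38.3 (SD, n = 3) in wild type nerves at 3 days post injury. Mitf nerves at 3 days post injury followed with 87.1 ± 41.3 (SD, n = 4), then Mutant nerves at day 7 with 35.3 ± 17.8 (SD, n = 3). Mitf-Ndrg1 nerves had 24.5 ± 9.48 (SD, n = 5), Ndrg1 nerves 14.9 ± 2.75 (SD, n = 5) and wild type nerves at day 7 13.9 ± 11.3 (SD, n = 3). Between 1 and 5 CPM lay Mutant day 14 (4.23 ± 4.13, SD, n = 3), Fig4 -/- at P12 (4.16 ± 2.52, SD, n = 3), uninjured Mitf nerves (3.19 ± 1.14, SD, n = 4), wild type day 14 (1.59 ± 1.05, SD, n = 3), Egr2Cre Mitf (1.40 ± 0.606, SD, n = 3) and the Mitf nerves of that table (1.23 ± 0.774, SD, n = 3). The other 9 groups had means of at most 0.446 CPM, the level of the control nerves. Tables were scaled separately, so this order across tables, and that of the other genes below, is a description. Between neighbours in this order, only the step from wild type nerves at day 3 to injured Mitf nerves exceeds the sum of the 2 groups' SDs.

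Dhh, on chr15:98891152-98898540 (minus strand), is the ligand that resting Schwann cells make, and no library had less than 17.7 CPM of it. Its group means were 656 CPM ± 71.4 (SD, n = 6) in control nerves and 611 ± 87.4 (SD, n = 6) in the Mitf nerves beside them. DhhCre nerves had 448 ± 25.2 (SD, n = 5), uninjured Mitf nerves 417 ± 45.5 (SD, n = 4), Mitf-Ndrg1 nerves 386 ± 88.1 (SD, n = 5) and Mitf nerves at P21 373 ± 45.2 (SD, n = 5). From Egr2Cre nerves at P12 (354 ± 61.4, SD, n = 3) down to Fig4 -/- at P12 (238 ± 13.5, SD, n = 3), 8 groups followed each other in steps below the sum of neighbouring SDs, as did the groups above from DhhCre on. Dhh was at 140 ± 26.9 (SD, n = 3) in Mutant and 129 ± 10.2 (SD, n = 3) in wild type nerves at 3 days post injury, and at 127 ± 12.2 and 104 ± 22.0 (SD, n = 3 each) in Egr2Cre Mitf and Mitf nerves. The lowest levels were those of the time course at 7 and 14 days, between 24.1 ± 6.03 (SD, n = 3) in wild type at day 7 and 55.9 ± 28.6 (SD, n = 3) in Mutant at day 7. The steps from Mitf to DhhCre nerves and from Fig4 -/- at P12 to Mutant at day 3 exceed the sum of the 2 groups' SDs, and the others do not. Both of these steps cross tables that were scaled separately, so they too are a description. Genes on the opposite strand overlap exons of Shh (9530036O11Rik, Gm26894) and Dhh (Gm49442), and the sources used here do not say whether the counting used strand.

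**Figure D1:**
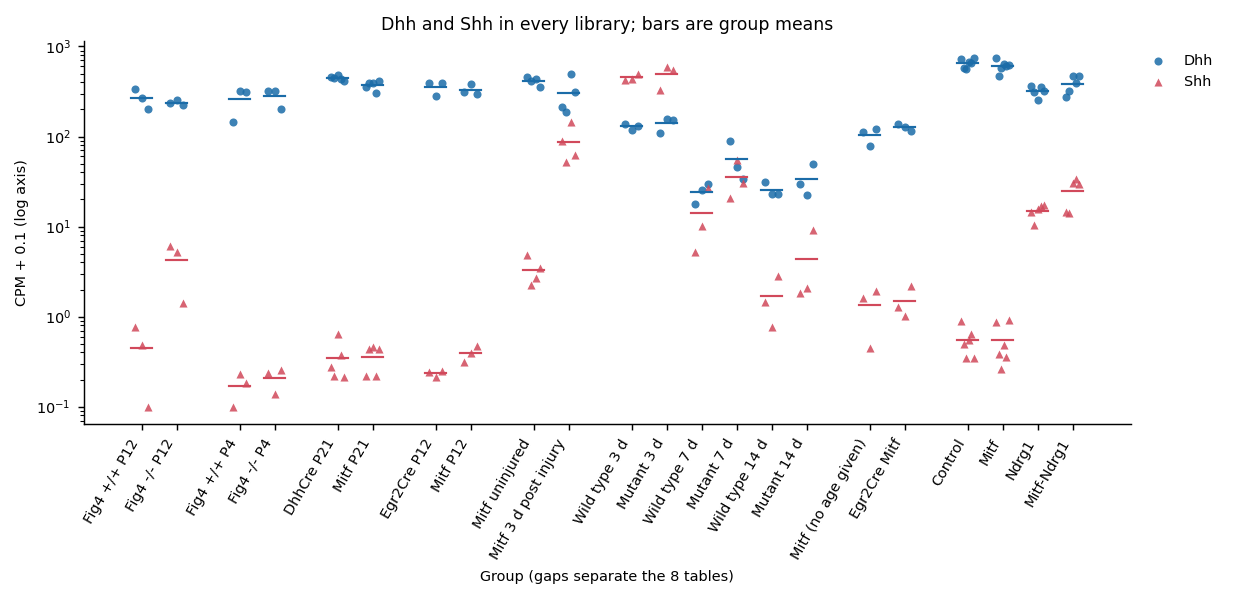
Dhh (circles) and Shh (triangles) in each of the 82 libraries, as CPM + 0.1 on a log axis, by group, with bars at the group means. In CPM, which are not per length, Shh lies above Dhh in all 6 libraries at 3 days of the time course and in 1 library at 7 days (Mutant replicate 2), and below it in the others.

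The Dhh to Shh balance was taken per library as log2 of (Dhh CPM + 0.1) over (Shh CPM + 0.1), so that 0 is equality. It was lowest in wild type and Mutant nerves at 3 days post injury, at -1.81 ± 0.172 and -1.79 ± 0.175 (SD, n = 3 each). It was 1.09 ± 0.842 in wild type and 0.66 ± 1.25 in Mutant nerves at day 7, and 4.12 ± 0.969 and 3.30 ± 0.807 at day 14 (SD, n = 3 each). Mitf nerves stood at 1.79 ± 0.434 at 3 days post injury and at 7.04 ± 0.475 uninjured (SD, n = 4 each). Ndrg1 and Mitf-Ndrg1 nerves stood at 4.43 ± 0.341 and 4.04 ± 0.361 (SD, n = 5 each), against 10.3 ± 0.495 in control and 10.3 ± 0.622 in Mitf nerves (SD, n = 6 each). Fig4 -/- nerves at P12 were at 6.06 ± 1.10 and Fig4 +/+ nerves at 9.62 ± 1.18 (SD, n = 3 each). Egr2Cre Mitf and Mitf nerves of the same table stood at 6.47 ± 0.663 and 6.51 ± 0.812 (SD, n = 3 each). All other groups lay between 9.73 and 10.6.

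Per kilobase of transcript, Shh made up 83.9% ± 1.65 (SD, n = 3) of the summed Shh and Dhh level in wild type nerves at day 3. The share was 41.4% ± 14.2 at day 7 and 8.43% ± 5.75 at day 14 (SD, n = 3 each). It was 30.4% ± 6.34 (SD, n = 4) in injured and 1.13% ± 0.367 (SD, n = 4) in uninjured Mitf nerves, and 6.53% ± 1.42 (SD, n = 5) in Ndrg1 against 0.10% ± 0.041 (SD, n = 6) in control nerves.

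**Figure D2:**
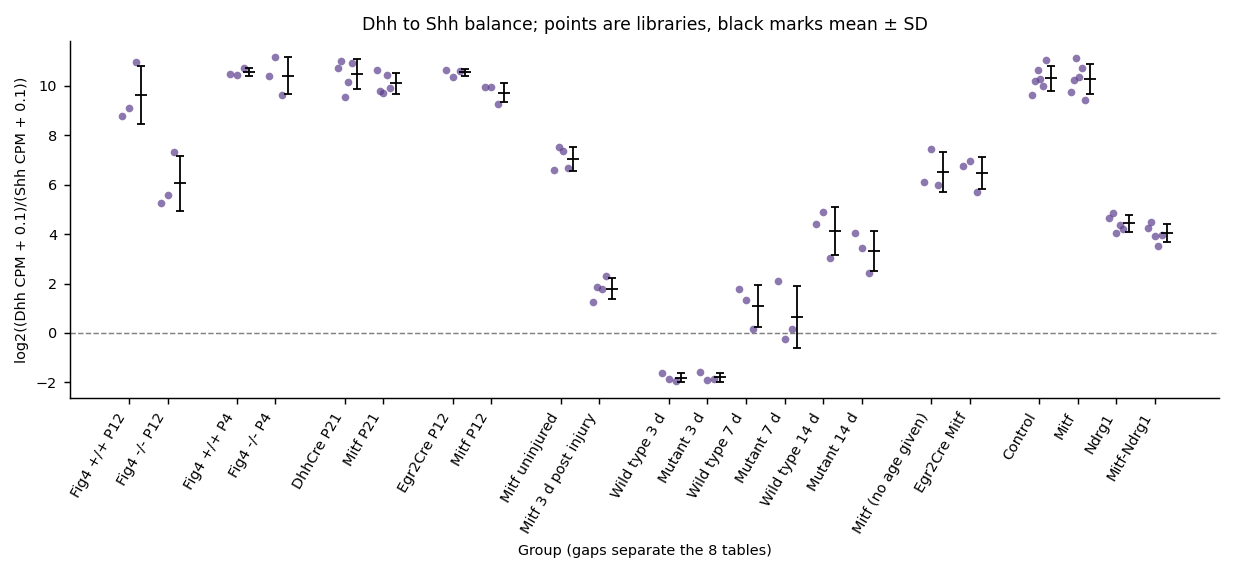
Dhh to Shh balance in log2 units per library (points) with the group mean ± SD (black). The dashed line at 0 marks equal levels, and the Ndrg1 and Mitf-Ndrg1 libraries lie between 3.53 and 4.87, below every control and Mitf library of their table.

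Balances were compared by exact two-sided permutation tests over libraries, with p-values adjusted over the 17 pairwise comparisons. The balance was lower by -5.87 in Ndrg1 than in control nerves and by -6.24 in Mitf-Ndrg1 than in Mitf nerves, each with exact p = 0.00433, the smallest these group sizes allow, and adjusted p = 0.0368. No library of the paired groups overlapped. The injury difference was -5.25 (exact p = 0.0286, the smallest 4 against 4 allows; adjusted p = 0.162), and -5.07 without the library that holds oligodendrocyte markers. An exact permutation test of 3 against 3 libraries cannot go below p = 0.1. That value was reached by the difference of -3.56 in Fig4 nerves at P12, by -0.82 in Mitf against Egr2Cre nerves, and by the steps from day 3 to 7 (2.90 in wild type, 2.45 in Mutant) and day 7 to 14 (3.03 and 2.64). The -0.82 rests on Shh near the added 0.1 CPM, at 0.216 to 0.372 CPM in Mitf and 0.114 to 0.146 CPM in Egr2Cre libraries. Shh was below the filter for testing in that table. The remaining differences, of Mitf against control (-0.03), Mitf against DhhCre (-0.38), Mitf-Ndrg1 against Ndrg1 (-0.40), Mutant against wild type (0.02, -0.43 and -0.82 at 3, 7 and 14 days), Egr2Cre Mitf against Mitf (-0.04) and Fig4 at P4 (-0.15), had exact p of at least 0.127.

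Each gene was then tested with edgeR across all genes of its table, with a call at Benjamini-Hochberg adjusted p under 0.05. In Ndrg1 against control 6 of 9 members were called, 4 higher (Shh, Gli1, Hhip, Olig1) and 2 lower (Dhh, Smo), where 60.5% of all tested genes were called (30.8% higher, 29.7% lower). In Mitf-Ndrg1 against Mitf 6 of 9 were called (Shh, Ptch1, Gli1 and Olig1 higher, Dhh and Smo lower), against 57.6% of all genes (29.7% higher, 27.9% lower). Those shares of members are close to the background of their comparisons. At 3 days post injury 3 of 7 tested members were called (Shh and Gli3 higher, Smo lower), against 22.1% of all genes (11.7% higher, 10.4% lower). Without the library with oligodendrocyte markers the count was 2.

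In the time course, 7 of 9 were called between days 3 and 7 in wild type nerves (5 higher, 2 lower; 39.1% of all genes, 19.4% higher and 19.6% lower) and 6 of 9 in Mutant nerves (4 higher, 2 lower; 33.4%, with 16.2% higher and 17.2% lower). Between days 7 and 14 the counts were 1 of 9 in wild type, lower (7.41% of all genes, 4.9% lower), and 4 of 9 in Mutant nerves, 2 in each direction (17.7%, with 8.55% higher and 9.16% lower). Mutant against wild type had 3 of 9 called at day 14, all higher (Ptch1, Gli1, Gli2; 8.29% of all genes, 7.05% higher), and 0 of 9 at days 3 and 7, where edgeR called no gene at all (0%). At an unadjusted p under 0.05 the members numbered 0 at day 3, of 299 genes in all, and 3 at day 7, of 2094. DESeq2 called 0 members and 0 genes at day 3, and 1 member and 241 genes at day 7.

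In the other comparisons edgeR called no member. In Fig4 nerves at P12 0 of 9 passed (3.03% of all genes), with 3 at an unadjusted p under 0.05 (of 2468 genes) and 1 by DESeq2 (of 962 genes). At P4 0 of 7 passed (0.00672% of all genes), with 0 at an unadjusted p under 0.05 and 0 by DESeq2. Mitf against DhhCre had 0 of 6 (0.0143%; 1 at an unadjusted p under 0.05, of 408 genes), Mitf against Egr2Cre 0 of 7 (0.0139%; 0 of 371), Egr2Cre Mitf against Mitf 0 of 9 (0%; 1 of 671), Mitf against control 0 of 9 (0.00629%; 0 of 994) and Mitf-Ndrg1 against Ndrg1 0 of 9 (1.47%; 2 of 2797), and DESeq2 called 0 members in each of these 5. The interaction of Mitf with Ndrg1 called 0 of 9 (0.39%; 0 at an unadjusted p under 0.05, 0 by DESeq2). The change in the Mutant effect called 0 of 9 from day 3 to 7 (0%; 2 unadjusted, of 1020 genes, and 0 by DESeq2, of 31). From day 7 to 14 it called 0 of 9 (0.0946%; 3 unadjusted, of 2339 genes, and 2 by DESeq2, of 437).

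**Figure D3:**
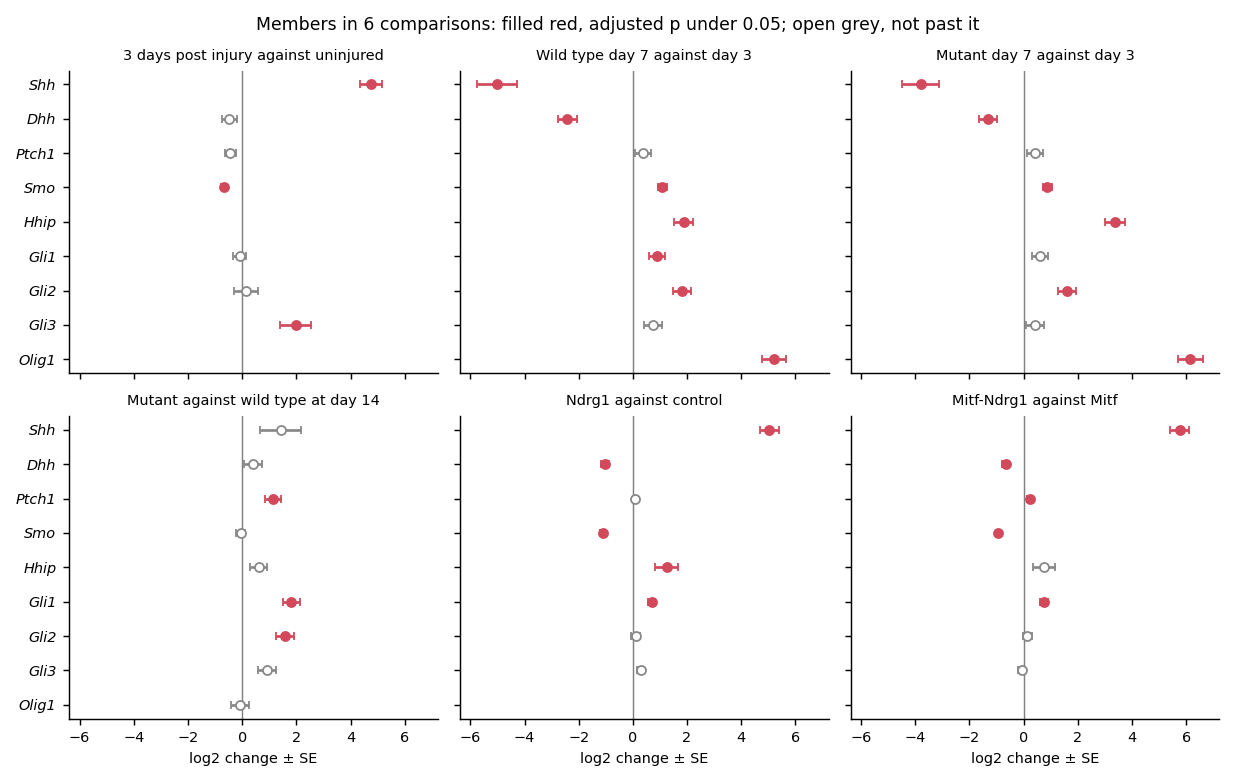
log2 change ± SE of the 9 genes in 6 comparisons. Filled red points passed an adjusted p under 0.05 and open grey points did not; Olig1 is left out where the second group is at 0, and genes that were not tested are blank.

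Shh changed most among the ligands after injury. The 4 injured Mitf libraries were at 89.7, 51.6, 144 and 63.0 CPM and the 4 uninjured at 4.71, 2.12, 2.56 and 3.35 CPM. Every injured library lay above every uninjured library, with a log2 change of 4.76 ± 0.402 (SE; edgeR adjusted p = 0.000892), and 4.74 ± 0.432 (adjusted p = 0.00102) without the library that stands apart. Dhh was at 213, 185, 491 and 312 CPM in the injured and 462, 411, 438 and 356 CPM in the uninjured libraries. The groups overlap through replicate 3, and the change of -0.47 ± 0.277 did not pass (adjusted p = 0.258). Without the library that stands apart it was -0.34 ± 0.271 (adjusted p = 0.417), and without injured replicate 3 -0.82 (adjusted p = 0.0154). That replicate also had the highest summed Schwann cell markers of the injured libraries, at 1621 CPM, where replicates 1, 2 and 4 had 975, 1014 and 1257 CPM and the uninjured libraries between 1917 and 2383 CPM. The part of these markers in the Dhh value was not tested. 3 of 4 Schwann cell and 3 of 6 perineurial markers were called lower after injury, where 10.4% of all genes were called lower.

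In the time course Shh fell at each step. Wild type libraries were at 425, 438 and 497 CPM at day 3, at 5.06, 9.96 and 26.6 at day 7, and at 1.36, 0.663 and 2.73 at day 14. The 3 days do not overlap, and the change was -5.03 ± 0.738 from day 3 to 7 (adjusted p = 0.000135) and -3.10 ± 0.744 from day 7 to 14 (adjusted p = 0.0284). The later call was lost without wild type replicates 2 or 3 of day 7 or of day 14, with adjusted p between 0.0618 and 0.117. Mutant libraries were at 328, 598 and 553 CPM at day 3, at 20.7, 55.1 and 30.1 at day 7, and at 1.74, 1.96 and 9.0 at day 14. Their changes were -3.81 ± 0.693 (adjusted p = 0.000916) and -3.04 ± 0.693 (adjusted p = 0.00997). A fit of the compared groups alone ended the day 7 to 14 call in both genotypes (adjusted p = 0.0823 and 0.0887).

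Dhh fell between days 3 and 7 and not clearly after. Wild type libraries were at 139, 119 and 130 CPM at day 3, at 17.7, 25.2 and 29.6 at day 7, and at 30.9, 22.8 and 23.1 at day 14. The change was -2.42 ± 0.343 from day 3 to 7 (adjusted p = 7.84e-05) and 0.09 ± 0.330 from day 7 to 14 (adjusted p = 0.873). Mutant libraries were at 109, 158 and 152 CPM at day 3, at 88.1, 45.9 and 33.6 at day 7, and at 29.9, 22.1 and 49.1 at day 14. Their fall from day 3 to 7 was -1.32 ± 0.330 (adjusted p = 0.00636), and -0.72 (adjusted p = 0.191) with a skeletal muscle covariate. From day 7 to 14 the Mutant change of -0.73 ± 0.328 did not pass (adjusted p = 0.132), and it was -1.09 (adjusted p = 0.0286) without Mutant replicate 3 of day 14. Summed Schwann cell markers in the Mutant libraries of day 7 were at 334, 483 and 304 CPM, highest in replicate 2, where Dhh was highest in replicate 1. In Mutant against wild type nerves at day 7 the Dhh change of 1.21 ± 0.332 did not pass with edgeR (adjusted p = 0.204) and did with DESeq2 (adjusted p = 0.0257). Schwann cell markers were called lower from day 3 to 7 for 2 of 4 in wild type and 1 of 4 in Mutant nerves. Of all genes 19.6% and 17.2% were called lower there.

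**Figure D4:**
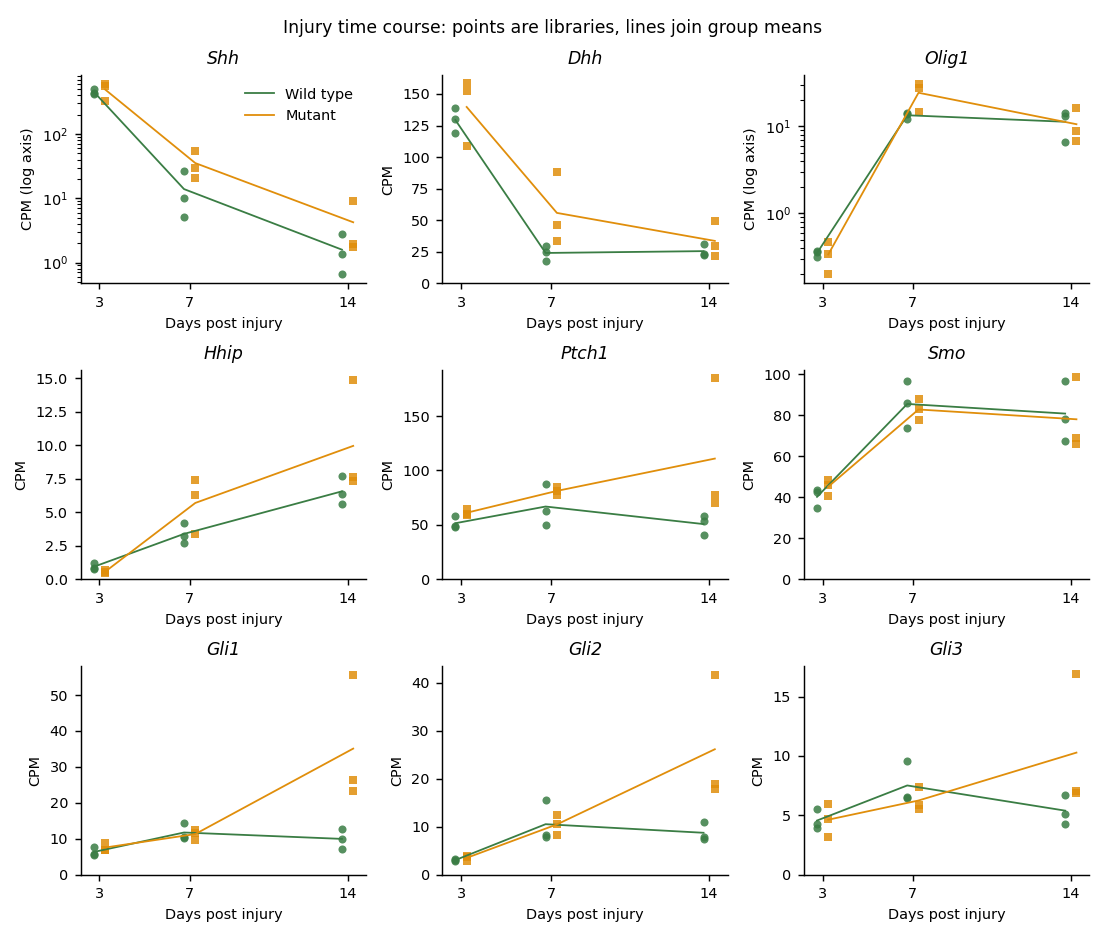
CPM of the 9 genes by days post injury in wild type (green circles) and Mutant (orange squares) libraries, with lines through the group means; Shh and Olig1 have log axes. Shh is highest at day 3 and Olig1 is at least 6.63 CPM in every library from day 7, and Mutant replicate 3 of day 14 is the highest point for Ptch1, Gli1, Gli2, Gli3 and Hhip.

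In the Ndrg1 table Shh ranged over 0.248, 0.419 and 0.793 CPM (lowest, median, highest) in the 6 control libraries and over 0.160, 0.336 and 0.817 CPM in the 6 Mitf libraries. The 5 Ndrg1 libraries were at 14.4, 10.4, 15.6, 16.8 and 17.3 CPM and the 5 Mitf-Ndrg1 libraries at 14.3, 14.2, 30.6, 33.7 and 29.8 CPM. All 10 lay above all 12 of the others, with changes of 5.03 ± 0.350 (adjusted p = 5.84e-11) in Ndrg1 against control and 5.75 ± 0.354 (adjusted p = 9.59e-12) in Mitf-Ndrg1 against Mitf. The Ndrg1 and Mitf-Ndrg1 libraries overlap, and their difference of 0.72 ± 0.288 did not pass (adjusted p = 0.196).

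Dhh went the other way there. The 5 Ndrg1 libraries were at 368, 309, 256, 354 and 322 CPM, below all 6 control libraries, which ran from 562 to 741 CPM. The change was -1.03 ± 0.135 (adjusted p = 4.65e-07), a mean 2.04-fold lower. Mitf-Ndrg1 libraries were at 276, 320, 471, 390 and 471 CPM and reached the lowest Mitf library (471 CPM), with a change of -0.66 ± 0.134 (adjusted p = 0.00016). All 4 of the Schwann cell markers were called lower in each comparison. Their summed level was between 824 and 1094 CPM in Ndrg1, 1645 and 1811 in control, 787 and 1157 in Mitf-Ndrg1 and 1354 and 1784 in Mitf nerves. 5 of 6 macrophage markers were called higher in each. Endothelial markers were called lower for 5 of 5 in Ndrg1 against control nerves (summed 139 to 144 CPM against 221 to 275) and for 3 of 5 in Mitf-Ndrg1 against Mitf nerves (156.5 to 207 CPM against 236 to 271). In those 2 comparisons, in the same order, 2 and 4 of 4 mast cell markers, 0 and 4 of 4 adipocyte markers and 2 and 4 of 7 fibroblast markers were called higher, with 2 and 1 fibroblast markers lower. Perineurial markers were called higher for 1 and 2 of 6 and lower for 2 and 1. In each comparison 2 of 2 tested T and NK cell markers were called higher and 2 of 5 pericyte and smooth muscle markers lower. Of all tested genes 60.5% were called in Ndrg1 against control (30.8% higher, 29.7% lower). In Mitf-Ndrg1 against Mitf nerves 57.6% were (29.7% higher, 27.9% lower). The part of these marker changes in the changes of the 9 genes was not tested.

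In Fig4 -/- nerves at P12 Shh was at 6.03, 5.16 and 1.30 CPM, where the Fig4 +/+ libraries were at 0.672, 0.382 and 0 CPM. The groups do not overlap, and the change of 3.55 ± 0.994 missed the threshold (adjusted p = 0.0876). DESeq2 called it (adjusted p = 0.00253), as did edgeR without Fig4 -/- replicate 3 (3.96, adjusted p = 0.0483). These values rest on 30 to 155 estimated counts in Fig4 -/- and 0 to 15 in Fig4 +/+ libraries. 3 of 6 macrophage markers and none of the Schwann cell markers were called higher there, where 3.03% of all genes were called in either direction. The part of these markers was not tested. Dhh did not pass (-0.17 ± 0.167, adjusted p = 0.657). At P4 Shh was at no more than 0.154 CPM in any library and was not tested. In DhhCre nerves at P21 Dhh was at 461, 447, 483, 432 and 418 CPM and in Mitf nerves at 359, 395, 390, 301 and 418 CPM. The change of -0.27 ± 0.0854 had an unadjusted p of 0.00817 and did not pass over all genes (adjusted p = 1). Whether the Cre allele, which carries Dhh sequences, adds reads to Dhh was not tested.

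Ptch1, on chr13:63508328-63573598 (minus strand), is the hedgehog receptor and a response gene. Its group means ran from 50.6 CPM ± 9.11 (SD, n = 3) in wild type nerves at day 14 to 364 ± 49.5 (SD, n = 3) in Egr2Cre Mitf nerves, with 264 ± 86.2 (SD, n = 3) in the Mitf nerves beside them. At day 3, where Shh was highest, Ptch1 was at 51.4 ± 5.51 in wild type and 61.0 ± 3.11 in Mutant nerves (SD, n = 3 each). From day 3 to 7 the change was 0.38 ± 0.292 in wild type and 0.41 ± 0.292 in Mutant nerves. Neither passed (edgeR adjusted p = 0.324 and 0.296), though in Mutant nerves Ptch1 did with the compared groups alone (0.45, adjusted p = 0.00241). In injured against uninjured Mitf nerves it was at 130 ± 32.8 and 176 ± 34.5 CPM (SD, n = 4 each), a change of -0.44 ± 0.201 that did not pass (adjusted p = 0.148), nor did it without the library that stands apart (-0.39 ± 0.210, adjusted p = 0.221). Ndrg1 nerves (128 ± 10.2, SD, n = 5) overlapped control nerves (121 ± 9.02, SD, n = 6; adjusted p = 0.475). Mitf-Ndrg1 libraries were at 154, 127, 148, 135 and 181 CPM against 97.4 to 136 in Mitf, a change of 0.23 ± 0.0930 (adjusted p = 0.0344). That call was lost without Mitf replicates 2 or 6 or Mitf-Ndrg1 replicates 1, 3 or 5, with adjusted p between 0.0545 and 0.152. It was also lost with the compared groups alone (edgeR adjusted p = 0.0804).

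Smo, on chr6:29735503-29761365 (plus strand), is the membrane protein that carries the signal past Ptch1. It was highest in control nerves, at 167 CPM ± 9.11 (SD, n = 6), and lowest in wild type nerves at 3 days post injury, at 40.1 ± 4.78 (SD, n = 3). The 4 injured Mitf libraries were at 67.5, 69.6, 79.8 and 75.8 CPM, all below the uninjured at 124, 123, 105 and 109 CPM. The change was -0.65 ± 0.111 (adjusted p = 0.00454), and -0.62 ± 0.119 (adjusted p = 0.00578) without the library that stands apart. Ndrg1 libraries were at 88.2, 75.2, 62.5, 85 and 75.7 CPM, below all control libraries (155 to 180 CPM), a change of -1.11 ± 0.0994 (adjusted p = 9.57e-10). Mitf-Ndrg1 libraries, between 65.7 and 103 CPM, lay below all Mitf libraries (145 to 188 CPM), a change of -0.94 ± 0.0988 (adjusted p = 1.84e-08). In the time course Smo rose from day 3 to 7. Wild type libraries were at 43.3, 34.6 and 42.4 CPM and then at 86.0, 96.8 and 73.6 CPM (1.09 ± 0.172, adjusted p = 0.000194), and Mutant libraries rose by 0.88 ± 0.172 (adjusted p = 0.0013). Between days 7 and 14 neither changed past the test.

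Hhip, on chr8:79965851-80058006 (minus strand), encodes a membrane protein that binds hedgehog ligands and is itself a response gene. It was highest at P4, at 28.4 CPM ± 5.36 in Fig4 -/- and 22.0 ± 1.24 in Fig4 +/+ nerves (SD, n = 3 each). Those groups overlap, and the change did not pass (0.37 ± 0.165, adjusted p = 1). All nerves labelled P12 or P21 had group means between 0.230 and 1.39 CPM. In wild type nerves it was at 0.727, 0.852 and 1.16 CPM at day 3, at 3.21, 4.19 and 2.72 at day 7 and at 7.74, 6.34 and 5.59 at day 14. No day overlapped another, with a change of 1.88 ± 0.351 from day 3 to 7 (adjusted p = 0.000715) and 0.95 ± 0.323 from day 7 to 14, which missed the threshold (adjusted p = 0.0743). Mutant libraries were at 0.428, 0.647 and 0.551 CPM at day 3 and at 7.41, 3.34 and 6.30 at day 7 (3.37 ± 0.370, adjusted p = 1.43e-05). In Ndrg1 against control nerves Hhip was at 0.511, 0.415, 0.957, 0.627 and 1.13 CPM against 0.166 to 0.402 CPM, a change of 1.24 ± 0.436 (adjusted p = 0.0167) on 10 to 23 counts per Ndrg1 library. Without Ndrg1 replicate 5 it was 1.05 (adjusted p = 0.0567). In Mitf-Ndrg1 against Mitf nerves the change of 0.74 ± 0.409 did not pass (adjusted p = 0.129), and without Mitf replicate 2, the highest of its group, it was 1.06 (adjusted p = 0.0293).

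Gli1, on chr10:127329882-127341974 (minus strand), is an activator whose own transcription reports the pathway. Its group means were highest in Mitf-Ndrg1 (67.1 CPM ± 7.38, SD, n = 5), Ndrg1 (63.4 ± 13.4, SD, n = 5) and the Mitf nerves tabled with Egr2Cre Mitf (63.3 ± 18.4, SD, n = 3), which overlap. They were lowest in Fig4 nerves at P12, at 4.49 ± 1.68 in Fig4 +/+ and 5.69 ± 2.80 in Fig4 -/- (SD, n = 3 each). The 5 Ndrg1 libraries were at 65.8, 75.7, 40.5, 69.2 and 65.8 CPM and the control libraries between 27.8 and 46.1 CPM. Replicate 3 alone falls in the control range, and the change was 0.69 ± 0.143 (adjusted p = 0.000208). Mitf-Ndrg1 libraries, between 59.6 and 77.4 CPM, lay above all Mitf libraries (28.5 to 45.8 CPM), with 0.74 ± 0.142 (adjusted p = 9.87e-05). Gli1 was at 37.2 ± 8.74 CPM in injured and 39.6 ± 11.5 in uninjured Mitf nerves (SD, n = 4 each; -0.09 ± 0.233, adjusted p = 0.822), while Shh was 27.3-fold higher in the same libraries. Without the library that stands apart the Gli1 change was 0.06 ± 0.206 (adjusted p = 0.881).

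**Figure D5:**
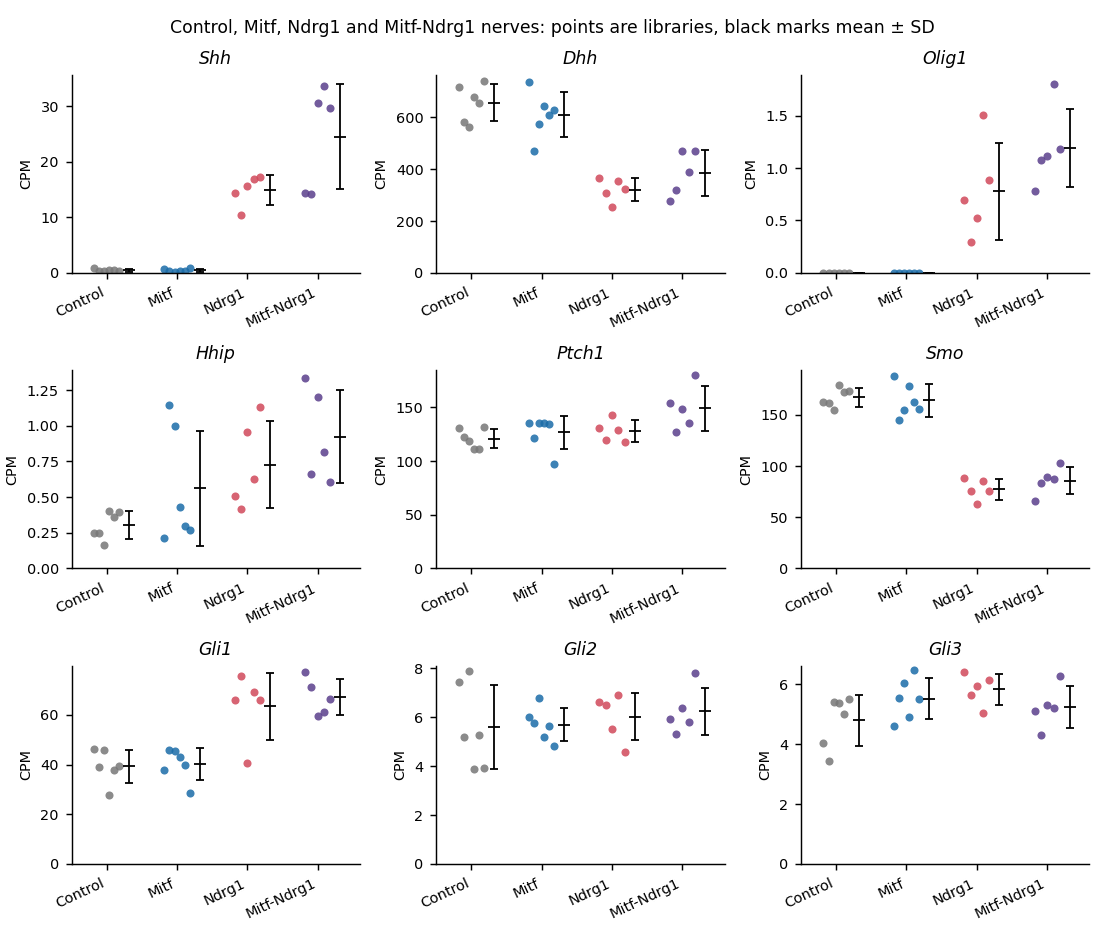
CPM of the 9 genes in control, Mitf, Ndrg1 and Mitf-Ndrg1 libraries (points) with mean ± SD (black). Shh and Olig1 are high and Dhh and Smo low in the 10 libraries whose label names Ndrg1, and Ptch1, Gli2 and Gli3 overlap between the groups.

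In the time course Gli1 separated the genotypes at day 14. Wild type libraries were at 12.8, 7.0 and 10 CPM and Mutant libraries at 23.3, 26.2 and 55.7 CPM, which do not overlap. The change was 1.82 ± 0.300 (adjusted p = 0.0043), and 1.32 ± 0.229 (adjusted p = 0.011) without Mutant replicate 3. With the compared groups alone it did not pass (edgeR adjusted p = 0.292). In Mutant nerves Gli1 had risen from 11.7, 9.66 and 12.5 CPM at day 7 (1.64 ± 0.296, adjusted p = 0.00258), a call lost with the compared groups alone (adjusted p = 0.0801). The growth of the Mutant effect from day 7 to 14, 1.88 ± 0.417, missed the threshold with edgeR (adjusted p = 0.0718) and passed with DESeq2 (adjusted p = 0.00406). With edgeR it also passed without Mutant replicate 1 or 2 of day 14 (adjusted p = 0.0371 and 0.0360), which leaves more weight on replicate 3. With the muscle covariate it was 2.02 (adjusted p = 0.0239). From day 3 to 7 in wild type nerves Gli1 rose by 0.90 ± 0.298 (adjusted p = 0.0263), a call lost without wild type replicates 1 or 3 of day 3 or replicate 2 of day 7 (adjusted p between 0.0775 and 0.0988).

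Gli2, on chr1:118834132-119053619 (minus strand), is the main activator, and Gli3, on chr13:15463235-15730026 (plus strand), is mostly a repressor without ligand. Gli2 was at 11.0, 7.37 and 7.75 CPM in wild type and 18.9, 17.9 and 41.6 CPM in Mutant nerves at day 14 (1.59 ± 0.325, adjusted p = 0.0122). Ptch1 was at 57.6, 40.3 and 53.9 against 77.3, 70.4 and 185 CPM (1.13 ± 0.295, adjusted p = 0.031). Neither pair of groups overlaps. Without Mutant replicate 3, the highest in each, Gli2 was 1.09 ± 0.271 (adjusted p = 0.062) and Ptch1 0.56 ± 0.194 (adjusted p = 0.197). Leaving out wild type replicate 2 or 3 of day 14 also ended both calls. Summed muscle markers in those Mutant libraries were 21479, 128233 and 5239 CPM for replicates 1 to 3, and in wild type 8473, 102319 and 72362 CPM. A fit of these 6 libraries alone called none of Ptch1, Gli1 and Gli2 (adjusted p between 0.292 and 0.323), nor any other gene. No Schwann cell or fibroblast marker was called between the genotypes at day 14.

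Gli2 rose from day 3 to 7 by 1.80 ± 0.336 in wild type (adjusted p = 0.000725) and 1.59 ± 0.333 in Mutant nerves (adjusted p = 0.00202), and from day 7 to 14 by 1.32 ± 0.320 in Mutant nerves (adjusted p = 0.0124). The last call was lost without Mutant replicate 2 of day 7 (adjusted p = 0.0592) and with the compared groups alone (adjusted p = 0.106). Fibroblast markers rose beside it, with 6 of 7 called higher from day 3 to 7 in each genotype. In each genotype 3 of 6 perineurial markers and 3 of 5 pericyte and smooth muscle markers were also called higher, with 2 perineurial markers lower in wild type. Endothelial markers were called higher for 5 of 5 in Mutant and 0 of 5 in wild type nerves. Of all genes 19.4% were called higher in wild type and 16.2% in Mutant nerves. The part of these markers in the rise of Gli2 was not tested. Gli3 was highest at P4 (13.2 CPM ± 2.80 in Fig4 +/+ and 13.1 ± 2.35 in Fig4 -/- nerves, SD, n = 3 each). In injured Mitf nerves it was at 21.6, 4.33, 5.83 and 4.61 CPM against 1.82, 1.40, 3.19 and 2.86 CPM uninjured, with 1.98 ± 0.572 (adjusted p = 0.0331). The value of 21.6 CPM belongs to the library with oligodendrocyte and neuron markers. Without it the change was 1.08 ± 0.429 (adjusted p = 0.0949), and without any 1 uninjured library the adjusted p lay between 0.0611 and 0.0946. With the muscle covariate the change was 2.10 (edgeR adjusted p = 0.116). At day 14 Gli3 was at 6.75, 4.28 and 5.14 CPM in wild type and 6.89, 7.02 and 16.9 CPM in Mutant nerves. The change of 0.93 ± 0.335 did not pass (adjusted p = 0.0886), and passed without Mutant replicate 1 (adjusted p = 0.0454) or 2 (0.0239), which leaves more weight on replicate 3. In Fig4 nerves at P12 Gli3 was at 0.739, 1.01 and 2.87 CPM in Fig4 -/- and at 4.30, 4.21 and 3.66 CPM in Fig4 +/+ libraries. Those groups do not overlap, and the change of -1.40 ± 0.560 did not pass (adjusted p = 0.224); without Fig4 -/- replicate 3 it was -2.21 (adjusted p = 0.0457).

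Olig1, a single-exon gene on chr16:91269772-91271933 (plus strand), had 0 counts in every library of 5 groups: Fig4 +/+ at P12 and P4, Egr2Cre at P12, and the control and Mitf nerves of the Ndrg1 table. A count of 0 allows up to 3 counts over a group, which is 0.0217 CPM in control nerves. The highest value, 64.6 CPM, was in the injured Mitf library with oligodendrocyte markers, and the next highest were the libraries of days 7 and 14 of the time course. Wild type libraries were at 0.318, 0.365 and 0.371 CPM at day 3, at 13.8, 12.2 and 14.1 at day 7 and at 13.1, 6.63 and 14.0 at day 14. Day 3 lay below all others, and the rise to day 7 was 5.22 ± 0.443 (adjusted p = 9.39e-07). Mutant libraries were at 0.476, 0.202 and 0.339, then 14.6, 30.5 and 27.6, then 8.79, 6.81 and 16.1 CPM. The rise was 6.15 ± 0.452 (adjusted p = 6.33e-07), and the later fall of -1.19 ± 0.336 passed with adjusted p = 0.0249. That fall was lost without Mutant replicate 2 or 3 of day 7 or replicate 1 or 2 of day 14, with the muscle covariate (-0.94, adjusted p = 0.15), and with the compared groups alone (adjusted p = 0.151). Oligodendrocyte markers did not rise with Olig1: their summed level was at most 0.654 CPM in each library of days 7 and 14.

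Ndrg1 libraries held Olig1 at 0.696, 0.291, 0.524, 1.51 and 0.884 CPM, from 7 to 41 counts each, and Mitf-Ndrg1 libraries at 0.782, 1.08, 1.11, 1.80 and 1.18 CPM. Against the limit of 3 counts over the group, the means were at least 36.0-fold higher than in control and at least 55.4-fold higher than in Mitf nerves, and both passed the test (edgeR adjusted p = 1.67e-06 and 6.27e-07). Fig4 -/- nerves at P12 held 28, 24 and 11 counts (1.09, 0.931 and 0.478 CPM) against none in Fig4 +/+, at least 18.1-fold higher, with adjusted p = 0.0989. At P4 Fig4 -/- libraries held 4, 6 and 5 counts and Fig4 +/+ libraries none, and Olig1 was below the filter for testing. Egr2Cre Mitf libraries were at 1.5, 2.85 and 1.83 CPM, all above the Mitf libraries at 0.470, 0.768 and 1.10 CPM. That change of 1.40 ± 0.394 had an unadjusted p of 0.00693 and did not pass over all genes (adjusted p = 0.846). In injured Mitf nerves Olig1 was at 64.6, 0.293, 0 and 0.0774 CPM, so that the library with oligodendrocyte markers sets the group's mean. Gm15966 overlaps the Olig1 exon on the opposite strand.

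Of 39 further genes of the pathway, between 29 and 33 were tested per table. In Ndrg1 against control 4 rose and 15 fell of 32, with a median log2 change of -0.28 against 0.02 over all genes. The share called was close to the 60.5% of all genes called there (30.8% higher, 29.7% lower). Ccnd1, a cyclin that hedgehog signalling can induce, rose by 2.07 ± 0.0922. The ciliary Smo regulator Evc2 changed by -1.60 ± 0.108, the ligand release transporter Disp1 by -1.51 ± 0.138 and the ubiquitin ligase subunit Btrc by -0.78 ± 0.0772. In Mitf-Ndrg1 against Mitf 5 rose and 17 fell of 32, where 57.6% of all genes were called (29.7% higher, 27.9% lower). Among them were Ccnd1 (1.94 ± 0.0919), Evc2 (-1.28 ± 0.107), the kinesin motor subunit Kif3a (-0.86 ± 0.0860) and Btrc (-0.76 ± 0.0769). Genes of the cilium and of transduction made up 10 of those 15 and 12 of those 17, and 18 of the 32 genes tested in each comparison. Each of these named changes had an edgeR adjusted p of at most 9.59e-09.

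After injury 1 rose and 8 fell of 33, where 22.1% of all genes were called (11.7% higher, 10.4% lower), with Ccnd1 at 2.32 ± 0.295, Kif3a at -0.69 ± 0.127, the negative regulator Gpr161 at -0.83 ± 0.185 and Evc at -0.72 ± 0.183. Without the library that stands apart the counts were 1 and 8 of 34, the same genes. The lower count became 2 to 5 without any 1 uninjured library or without injured replicate 2 or 4, 11 without injured replicate 3, and 1 with the muscle covariate.

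From day 3 to 7 wild type nerves had 7 higher and 6 lower of 33 (39.1% of all genes, 19.4% higher and 19.6% lower), with Disp1 at -1.53 ± 0.219, the ciliary GTPase Arl13b at 0.84 ± 0.135, Scube1 at -2.71 ± 0.452 and the co-receptor Boc at 1.35 ± 0.230. Mutant nerves had 9 higher and 4 lower of 33 (33.4%, with 16.2% higher and 17.2% lower), with Scube2, which helps release ligand, at 4.16 ± 0.695, Boc at 1.36 ± 0.230, Foxf1 at 1.62 ± 0.278 and the co-receptor Cdon at 1.08 ± 0.192. From day 7 to 14 none was higher and 2 were lower in wild type nerves (Ccnd1 -1.13 ± 0.280, Cdon -0.67 ± 0.192), where 7.41% of all genes were called. Neither was called without any 1 library of day 7, without replicate 2 or 3 of day 14, or with the muscle covariate, and 5 were lower without replicate 1 of day 14. In Mutant nerves 2 were higher and 5 lower (Ccnd1 -1.81 ± 0.285, Foxf1 -1.18 ± 0.276, Efcab7 1.12 ± 0.274, Boc 0.87 ± 0.223), against 17.7% of all genes, and with the compared groups alone none was called. Mutant against wild type nerves at day 14 had 6 higher and none lower of 33, with a median of 0.46 against -0.02 over all genes, where 8.29% of all genes were called (7.05% higher). The ciliary gene Iqce was 1.12 ± 0.217 higher, the kinase Ulk3 1.14 ± 0.256, Cdon 0.76 ± 0.192 and Evc2 1.21 ± 0.314. Without Mutant replicate 3 of day 14 Iqce alone was called (0.74 ± 0.147, adjusted p = 0.0221), and none was without wild type replicate 2 or 3 or in a fit of the 6 libraries alone (adjusted p of the 6 genes between 0.305 and 0.328). Without Mutant replicate 1 the count was 9 higher, and without Mutant replicate 2 it was 17 higher and 1 lower. Calls over all genes of this comparison also moved, from 1314 to between 139 and 4959 with a library left out. In Fig4 nerves at P12 Ccnd1 (1.03 ± 0.18) and Scube1 (1.2 ± 0.233) rose and none fell of 29 (3.03% of all genes called). None was called there without Fig4 -/- replicate 2 or with the muscle covariate, and 1 without Fig4 +/+ replicate 2 or 3. In the other 11 comparisons edgeR and DESeq2 called none of the list, with 0 to 8 genes at an unadjusted p under 0.05.

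Genes with the most similar pattern were sought among 12916 genes in all 82 libraries, as Pearson r of log2(CPM + 1) after centring each table. Libraries of a group share a label, and the nearest genes were picked by their r, so r is a description. Nearest to Shh were Clcf1 (0.962), Gdnf (0.951), Fosl1 (0.942), Plaur (0.937) and Il4ra (0.935), and nearest to Dhh were Nfasc (0.959), Sema3b (0.953), Map6 (0.943), Cadm3 (0.940) and Rtkn (0.937). Nearest to Gli1 were Asap3 (0.846), Dzip1 (0.791), Adamts10 (0.787), Sned1 (0.782) and Pear1 (0.769), and nearest to Olig1 were Ptn (0.890), Ctso (0.861), Elovl5 (0.854), Scara3 (0.854) and Mdk (0.852). Within single tables r varied widely for some of these, for Clcf1 with Shh from -0.91 to 0.97. It varied less for others, for Cadm3 with Dhh from 0.793 to 0.998. Among the 9 genes, r was -0.78 between Shh and Smo, 0.37 between Shh and Dhh, 0.69 between Gli1 and Gli2 and 0.75 between Olig1 and Hhip. Between Shh and Gli1 it was -0.14.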

How the data were processed

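Stranded mRNA libraries were prepared from the RNA of frozen mouse sciatic nerves, per the labels' protocols. The authors deposited 8 tables of estimated counts per gene. The submitters' processing notes name kallisto and mm10, without versions or annotation. No deposited column was left unused (0). The 9 genes and all lists were chosen with earlier results of these data known. Some genes of the marker and pathway lists are not reported here and are left out of the lists' counts and sums.

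Estimated counts were rounded and filtered with filterByExpr at a minimum count of 10. After TMM scaling, edgeR 4.0.16 in R 4.3.3 gave robust quasi-likelihood tests, two-sided and adjusted over all genes of a table. In the time course and in the Ndrg1 table all groups entered a common fit. SEs were derived from the log2 change and its F statistic. CPM used TMM-scaled library sizes, and levels per kilobase the longest coding transcript of GENCODE vM21. Balances were tested with scipy 1.17.1. There were 17 pairwise comparisons and 3 interactions.

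Named beside the 9 genes were, per comparison, at most the 4 pathway genes past the test with the smallest p, and the 5 genes nearest to Shh, Dhh, Gli1 and Olig1. Replicate numbers deviated together in every pair only in the DhhCre table (r 0.111 to 0.358) and the Egr2Cre Mitf table (0.211 to 0.482), a pairing taken from the data. No 2 replicates held the same library (lowest chi-square per degree of freedom 9.61). Alternatives were RLE scaling, DESeq2 1.42.0, no filter, a replicate block, a skeletal muscle covariate, the compared groups alone, other pseudocounts and plain totals for the balance, and each replicate left out. On simulated counts the test recovered between 67% and 97% of 4-fold changes and between 9% and 83% of 2-fold changes, by comparison.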

Additional observations from a re-analysis of the deposited data

Results flagged for a closer look

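In groups of 4 to 6 libraries, the highest or lowest library was set against the rest of its group by Dixon's test, for the 9 genes and the balance, in 80 combinations of group and measure. Where values vary freely, chance alone is set to give such a gap in about 5% of them. Several of the combinations share a library.

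Among the Mitf nerves 3 days post injury, replicate 1 was far above the other 3 libraries for Olig1 (64.6 CPM, others 0 to 0.293), Gli3 (21.6 CPM, others 4.33 to 5.83) and Hhip (3.58 CPM, others 0 to 0.477). Gli1 was low in replicate 3 of the Ndrg1 nerves (40.5 CPM, others 65.8 to 75.7). Olig1 was above 0 in a single library of 3 groups, where the gap is the whole range by construction and the 5% does not apply: DhhCre replicate 4 (0.329 CPM), Mitf at P21 replicate 1 (0.0610 CPM) and uninjured Mitf replicate 4 (0.154 CPM).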

How the results depend on the processing

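Of 171 changes of single genes, RLE scaling altered no call, and over the 2445 alternatives no called change reversed; in 149 of them a change that passed in neither fit took the other sign. The number of members called depended on the settings as follows. In Fig4 nerves at P12 it was 1 with DESeq2, 1 without the filter and 1 with the replicate block (Shh 3.95, adjusted p = 0.0397), and 0 to 2 with a library left out. In wild type nerves from day 7 to 14 it was 2 with DESeq2, 0 without the filter, 2 with the muscle covariate, 0 with the compared groups alone and 0 to 1 with a library left out. In Mutant nerves from day 7 to 14 it was 0 with the compared groups alone and 2 to 5 with a library left out. In Mutant against wild type it was 1 with DESeq2 at day 7, and at day 14 it was 0 with the compared groups alone and 1 to 4 with a library left out. For the change in the Mutant effect from day 7 to 14 it was 2 with DESeq2, 2 with the muscle covariate and 0 to 1 with a library left out. Fewer libraries raise the smallest p of the balance tests: with a library left out, the difference was -6.00 to -5.72 in Ndrg1 against control and -6.41 to -6.07 in Mitf-Ndrg1 against Mitf, past the threshold in neither. The number of genes called over a whole table moved by over 1.5 times as follows. In Fig4 nerves at P12 it went from 435 to 962 with DESeq2, 1131 without the filter and 34 with the muscle covariate, and to between 146 and 709 with a library left out. After injury it went from 3365 to 1060 with that covariate and to between 1816 and 4058 with a library left out. In wild type from day 7 to 14 it went from 1175 to 2426 with DESeq2, 656 without the filter, 783 with the block, 461 with the covariate, 292 with the compared groups alone and 176 to 1933 with a library left out. In Mutant from day 7 to 14 it went from 2807 to 1805 without the filter, 1688 with the covariate, 88 with the compared groups alone and 1526 to 5144 with a library left out. In Mutant against wild type at day 14 it went from 1314 to 2383 with DESeq2, 846 without the filter, 856 with the block, 0 with the compared groups alone and 139 to 4959 with a library left out, with 244 without Mutant replicate 3. For the change in the Mutant effect from day 7 to 14 it went from 15 to 27 with RLE scaling, 437 with DESeq2, 6 with the block, 210 with the covariate and 1 to 212 with a library left out. In Mitf-Ndrg1 against Ndrg1 it went from 234 to 768 with DESeq2, 135 with the covariate, 31 with the compared groups alone and 58 to 545 with a library left out, and for the Mitf by Ndrg1 interaction from 62 to 414 with DESeq2 and 20 to 252. In the 8 comparisons with at most 2 genes called it was 0 to 241 with DESeq2, 0 to 4 in the other fits and 0 to 11 with a library left out. For the pathway list, whose settings were added after seeing the data, the called genes went from 2 to 4 (2 higher, 2 lower) with DESeq2 and to 3 higher and 2 lower without the filter in Fig4 nerves at P12. In wild type from day 7 to 14 they went from 2 to 5 with DESeq2, and to 1 without the filter, with the block and with the compared groups alone. In Mutant against wild type at day 14 they went from 6 to 10 higher and 2 lower with DESeq2, 4 without the filter and 3 with the block.

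The replicate block, where numbers do not pair the libraries, also ended the calls of Gli3 after injury (adjusted p = 0.0780), Hhip in Ndrg1 (0.0501) and Ptch1 in Mitf-Ndrg1 nerves (0.0651), and made Gli3 pass in Ndrg1 nerves (0.0460). In the tables whose numbers pair no member had been called, so the block had no member call to end, and it added none. Over all genes it moved the calls in the DhhCre table from 2 to 4. Except for the block and covariate just named, the cause was not tested.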
